A study of Mus musculus with 4 samples.

Results

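Non-synonymous coding SNPs are single-base differences between the B (C57BL/6J) and D (DBA/2J) mouse strains that change the residue a codon encodes, so a read over such a position shows from which parental copy a protein variant is expressed. All autosomal positions annotated by the authors as non-synonymous coding and exonic, with a different base listed for B and D, were taken. This gave 7864 SNPs in 3479 genes, of 49099 autosomal exonic SNPs with different bases (16.0%), beside 17278 synonymous coding SNPs. A read was counted at 7861 of them, and 3 had no read in any pool. Of the 3479 genes, 1961 held 1 such SNP and the richest held 39, so that many SNPs share a gene and its reads.

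RNA from the gonadal fat pad of chow-fed F1 mice, labelled as 8 weeks old, was sequenced in 4 pools from reciprocal crosses of B and D. The methods of the study give an older age at collection than the labels, so the age is uncertain. The pools labelled BxD female, BxD male and DxB male each held RNA from 3 animals, and the pool labelled DxB female held RNA from 2 animals. Every animal was an F1 with 1 B and 1 D copy of each autosome, so the B reads of a pool are the control for its D reads. With 1 pool per cross and sex, p-values measure the spread between these 4 pools, and a cross or a sex has no replicate of its own. Fewer cells of a type and less RNA per cell cannot be told apart in such bulk samples.

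The non-synonymous SNPs received 769490, 698628, 733916 and 588181 reads in the pools labelled BxD female, DxB female, BxD male, DxB male, out of 4219333 to 5569347 reads per pool at all listed SNPs. The file names of the pools labelled DxB female and BxD male give another cross and sex than their labels. At exonic SNPs of the X chromosome, of which a male carries only its mother's copy, the D share was 31.7% in the pool labelled BxD female, 0.817% in that labelled DxB female (109 D and 13226 B reads), 30.6% in that labelled BxD male and 61.6% in that labelled DxB male. The pool labelled DxB female thus had nearly no D reads on X, against its label, and that labelled BxD male had a D share close to that of the pool labelled BxD female. In the pool labelled DxB male, whose X by label is the D copy, 4007 of the X reads had the B base. Among its 115 X-linked SNPs with at least 10 reads the median D share was 100%, with at least 99% D at 65 and at most 1% D at 33, and in the pool labelled BxD female 37 of 125 such SNPs had at most 1% D. Comparisons of D with B use all 4 pools alike and do not depend on these names. Of marker genes with SNP reads, 6 of 14 adipocyte markers summed to 112388 to 146337 reads per 1000000 per pool, 2 of 7 macrophage markers to 260 to 495, 3 of 7 T and B cell markers to 1.61 to 10.9, 2 of 5 endothelial markers to 67.3 to 97.0 and 1 of 4 smooth muscle markers to 435 to 692. Epididymal markers (Adam7 and Lcn5, 2 of 5) had 77.7 reads per 1000000 in the pool labelled DxB male and 0 in the other 3, and none of the 6 mammary and reproductive epithelium markers had a SNP read. The part of other cell types in the allelic results was not tested.

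In an F1 hybrid both parental copies of a gene lie in the same nucleus and meet the same transcription factors, hormones and diet. A difference in their RNA levels, allele specific expression (ASE) or allelic imbalance, is therefore the usual readout of variation that acts in cis. A read that spans a SNP must also align to the reference genome, which is of strain B. Counts at a SNP can therefore reflect alignment as well as transcription, and where D variants are not masked in the reference a read with the D base carries a mismatch there. White adipose tissue stores triglyceride, secretes hormones and complement proteins, and holds resident immune and stromal cells, and genes of all these functions carried non-synonymous SNPs.

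The sequences around 8 of these SNPs are given for both strains, because they span the range of results: an abundant transcript near balance (Apoe), a deeply read D-higher SNP (Lpl), D-higher and B-higher SNPs whose gene leaned the same way elsewhere (Wisp2, Mrap), SNPs read almost only from B in genes that were balanced or B-only elsewhere (Cebpa, Ptrf), and SNPs of imprinted genes (H13, Ndn). Each is the coding strand, 5′ to 3′, of the mm9 (NCBIM37) reference with the SNP in the middle, and the capital marks the base listed as differing. Apoe lies at chr7:20282164-20282188 on the minus strand and its codon is GAG in B and GAT in D. Lpl lies at chr8:71425125-71425149 (plus, ATA and ATG), Wisp2 at chr2:163651015-163651039 (plus, GAC and AAC) and Mrap at chr16:90738806-90738830 (plus, GGG and AGG). Cebpa lies at chr7:35904879-35904903 (plus, GCG and CCG), Ptrf at chr11:100831651-100831675 (minus, ACC and GCC), H13 at chr2:152530381-152530405 (plus, GAG and GTG) and Ndn at chr7:69493331-69493355 (plus, GTC and GCC). The D bases and codons are those listed for D and were not checked in D DNA. At Cebpa only 3 of 2302 reads and at Ptrf 15 of 8203 had the listed D base, so their D sequences are uncertain.
Apoe, B: gcgggatgccgaGgatctgcagaag
Apoe, D: gcgggatgccgaTgatctgcagaag
Lpl, B: gcttaagtggatAagcgactcctac
Lpl, D: gcttaagtggatGagcgactcctac
Wisp2, B: ctgcatgtctgcGaccccagccagg
Wisp2, D: ctgcatgtctgcAaccccagccagg
Mrap, B: gtcatggccaacGggaccgacgcct
Mrap, D: gtcatggccaacAggaccgacgcct
Cebpa, B: gtcggggcgcccGcgctacggccgc
Cebpa, D: gtcggggcgcccCcgctacggccgc
Ptrf, B: gagccgtcggggAccggctccgacg
Ptrf, D: gagccgtcggggGccggctccgacg
H13, B: atccagcagccgAgactgaatccaa
H13, D: atccagcagccgTgactgaatccaa
Ndn, B: ttgcagccgaggTccccgactgtga
Ndn, D: ttgcagccgaggCccccgactgtga

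At all 7864 positions the base listed for B was the mm9 base. In the GENCODE vM1 gene models 7695 lay in a coding exon, where 7687 altered the encoded residue and 8 did not, and 169 lay outside coding exons of that annotation. Among the altering SNPs 3622 were at the first base of the codon, 3456 at the second and 609 at the third. Transitions, changes within the purines or within the pyrimidines, made up 64.9% of the non-synonymous and 83.1% of the synonymous SNPs.

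Most protein-changing variants with enough reads were expressed from both copies at close to equal levels. The median SNP had 57 reads over the 4 pools, 5894 had at least 10 reads, 3072 at least 100 and 446 at least 1000. Among the 3072 SNPs with at least 100 reads, the median D share (reads with the D base as a percent of B and D reads) was 47.1%, and 2021 (65.8%) had a D share between 40 and 60%. At the other end, 347 of them (11.3%) had under 1% D reads, while 12 (0.391%) had under 1% B reads.

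**Figure D1:**
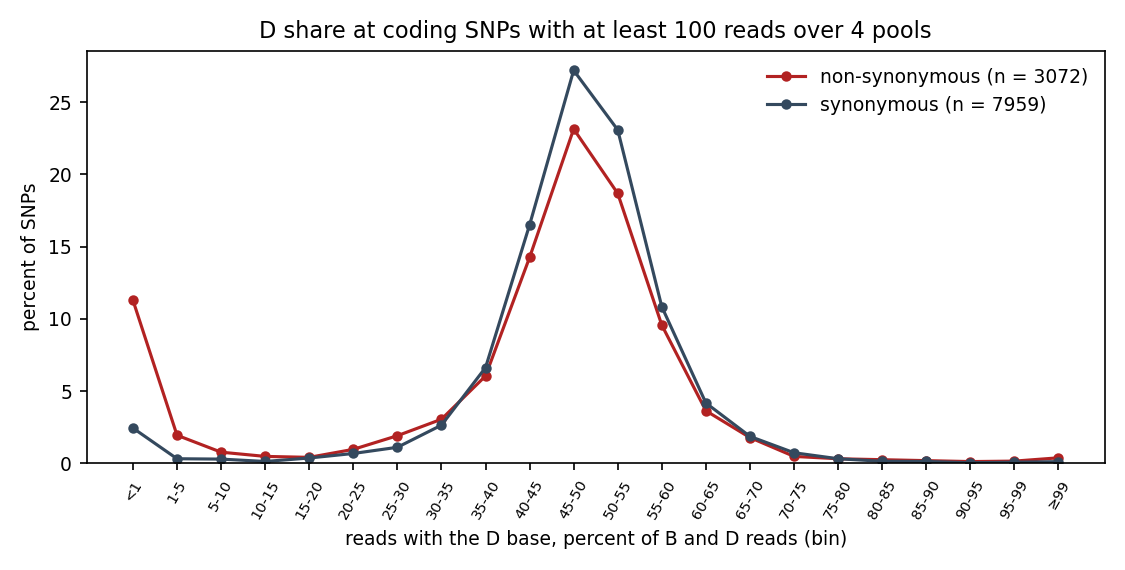
Percent of SNPs (vertical axis) in each bin of the D share, in percent of B and D reads over the 4 pools (horizontal axis), for non-synonymous (red, n = 3072) and synonymous (dark blue, n = 7959) SNPs with at least 100 reads. Both classes peak near 50%, and the bin under 1% D holds 11.3% of the non-synonymous SNPs.

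ASE was tested at each SNP with edgeR's quasi-likelihood test of D against B reads over the 8 allele libraries, with Benjamini-Hochberg adjustment over all 49086 autosomal exonic SNPs with a read and a threshold of 0.05. Of 7861 non-synonymous SNPs, 1357 (17.3%) passed, against 13.6% of all exonic SNPs. The D allele was higher at 293 (3.73%, against 4.06% of all exonic SNPs) and the B allele at 1064 (13.5%, against 9.57%). The median log2 ratio of D to B was -0.10 over the non-synonymous and -0.05 over all exonic SNPs. The called SNPs lay in 837 genes, of which 196 had a D-higher and 669 a B-higher SNP, and 28 had both. The log2 ratios are scaled to the B and D library sizes (TMM), and with 1 library size per pool for both alleles the median over all exonic SNPs fell by 0.10. The split was then 207 D-higher and 1142 B-higher SNPs, against 3.04% D-higher and 10.7% B-higher among all exonic SNPs (13.8% in all). When B and D were paired within each pool (the pool as a block in the fit), 1821 were called (543 D higher and 1278 B higher), among them 1317 of the 1357, against 21.1% of all exonic SNPs (8.28% D higher and 12.8% B higher).

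A large share of the B-higher SNPs had hardly any D reads. Of the 1064, 476 had no D read and 612 had under 1% D reads, while 34 of the 293 D-higher SNPs had no B read and 36 had under 1% B reads. With at least 1% of reads from each allele there remained 709 called SNPs, of which 257 were D-higher with a median log2 ratio of 1.18 and 452 B-higher with a median of -1.86. Of these 709, 532 exceeded an absolute log2 ratio of 1, 281 exceeded 2 and 189 exceeded 3. In a fit without SNPs of under 1% of reads from either allele, 579 of 6138 non-synonymous SNPs were called (9.43%, with 183 or 2.98% D higher and 396 or 6.45% B higher), against 8.87% of all exonic SNPs in that fit (3.46% D higher and 5.41% B higher).

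The near absence of D reads was more frequent at non-synonymous than at synonymous SNPs in each pool. Among SNPs with at least 100 reads in a pool, 12.03 to 13.03% of non-synonymous SNPs had under 1% D reads, against 2.33 to 2.77% of synonymous SNPs. The difference was 10.2 ± 0.519 percentage points (SD, n = 4 pools; exact two-sided sign-flip permutation p = 0.13, the smallest that 4 pools allow). This test was added after the values were seen. Over all reads, 40.01 ± 0.533% at non-synonymous and 47.2 ± 1.06% at synonymous SNPs carried the D base (SD, n = 4), a difference of -7.16 ± 0.736 percentage points with the same exact permutation p of 0.13. The difference was -3.86 points among SNPs with no other listed SNP within 50 bp, -2.54 points without SNPs of under 1% of reads from either allele and -2.16 points between the medians over SNPs. All 4 pools had the lower D share at non-synonymous SNPs under each of these settings. Shares over all reads weigh deeply read genes most. Of 2790215 non-synonymous reads, H2-K1 held 116605 B and 17095 D reads and H2-D1 held 106750 B and 4275 D reads.

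Base change and neighbouring SNPs moved with the D share. Among non-synonymous SNPs with at least 100 reads, 45.5% of the 347 with under 1% D reads were transitions, against 68.7% of the other 2725, and 45.5% against 62.1% had no other listed SNP within 50 bp. The share that altered a codon of the GENCODE models was alike, 98.3% and 98.0%. With 0, 1, 2 and 3 or more listed SNPs within 50 bp, the median D share was 47.8%, 47.4%, 44.0% and 32.2% (n = 1851, 755, 289 and 177). Synonymous SNPs had medians of 48.9%, 48.6%, 46.9% and 39.5% in the same classes. These are descriptions over SNPs, many of which share reads, and the part of alignment or of SNP annotation in them was not tested here. The study sequenced D DNA at a subset of SNPs read only from B and verified none of them. It saw no alignment problem at the SNPs it inspected. Among 115 X-linked SNPs with at least 10 reads in the pool labelled DxB male, 65 had at least 99% D and 33 at most 1% D.

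The 10 genes with the most deeply read non-synonymous SNPs were Apoe, Lpl, Cidec, B2m, H2-D1, Rps9, Rmcs2, H2-K1, Ccdc80 and Mfge8. Apoe, a ligand for lipoprotein receptors, had the most reads at its SNP in exon 4 of 4, with 14921 B and 16706 D reads in the pool labelled BxD female, 15553 and 17754 in that labelled DxB female, 13229 and 14916 in that labelled BxD male, and 10106 and 11291 in that labelled DxB male. The D share was 52.8 to 53.3% and above that of B in each pool, 53.0 ± 0.241% (SD, n = 4). The log2 ratio of D to B was 0.28 ± 0.21 (SE), which did not pass edgeR's test (adjusted p = 0.464), and passed with the pool as a block (adjusted p = 1.04e-20). Cidec, a lipid droplet protein of fat cells, had D shares of 49.6 to 52.2% (adjusted p = 0.689 by edgeR, 7.66e-07 with the block). B2m, the light chain of class I antigen-presenting molecules, had 50.1 to 50.7% (adjusted p = 0.765 by edgeR, 0.000954 with the block), and Ccdc80, a secreted protein of the extracellular matrix, had 46.1 to 49.8% (adjusted p = 0.984 by edgeR, 0.933 with the block).

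Lpl, the lipoprotein lipase that frees fatty acids from circulating triglyceride, held a pair of non-synonymous SNPs, of which 1 was called. At the SNP in exon 8 of 10 shown in the sequences, B and D reads were 6523 and 13416, 7367 and 14968, 9569 and 14305, and 5877 and 9518 in the pools labelled BxD female, DxB female, BxD male, DxB male. D exceeded B in all of them, and the D share was higher in the pools labelled female (67.3 and 67.0%) than in those labelled male (59.9 and 61.8%). The mean was 64.0 ± 3.71% (SD, n = 4), with a log2 ratio of 0.92 ± 0.21 (SE, edgeR adjusted p = 0.00109). The SNP in exon 7, chosen after its values were seen, had a D share of 50.1 ± 2.55% (adjusted p = 0.790 by edgeR, 0.0105 with the block), and the other exonic SNPs of Lpl more than 50 bp away from these summed to 55.4% D (adjusted p = 0.0874). Another SNP was listed within 50 bp of each of the pair, and the difference between them was not tested.

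Mfge8, a secreted glycoprotein that links apoptotic cells to phagocytes, was B-higher at a deeply read SNP in exon 7 of 10. The D share was 41.2%, 34.7%, 33.5% and 33.0% in the pools labelled BxD female, DxB female, BxD male, DxB male, and the log2 ratio was -0.80 ± 0.22 (edgeR adjusted p = 0.00774). The rest of the gene leaned the same way, with 26.1% D reads (adjusted p = 0.00255). The remaining SNPs with the most reads lay in Rps9, a ribosomal protein gene, and in the H2 region of chromosome 17. Rps9 had 22089 B and 2 D reads in exon 3, and H2-K1 had 17741 B and 7 D reads in exon 2. H2-D1 had 23049 B and 456 D reads in exon 3 (log2 -5.54 ± 0.26, edgeR adjusted p = 2.27e-22). Rmcs2 had a D share of 41.0 ± 1.30% (SD, n = 4; adjusted p = 0.188 by edgeR, 2.87e-19 with the block). Of the 10 non-synonymous SNPs of Rmcs2, 5 were called, all B-higher, among them 1 with 6943 B and 2216 D reads (24.2 ± 0.609% D, adjusted p = 1.87e-07) that was chosen after its values were seen. The rest of Rmcs2 had 39.98% D (adjusted p = 0.0485). Rps9 and the class I H2 genes have near-identical copies elsewhere in the genome, so their counts are uncertain.

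**Figure D2:**
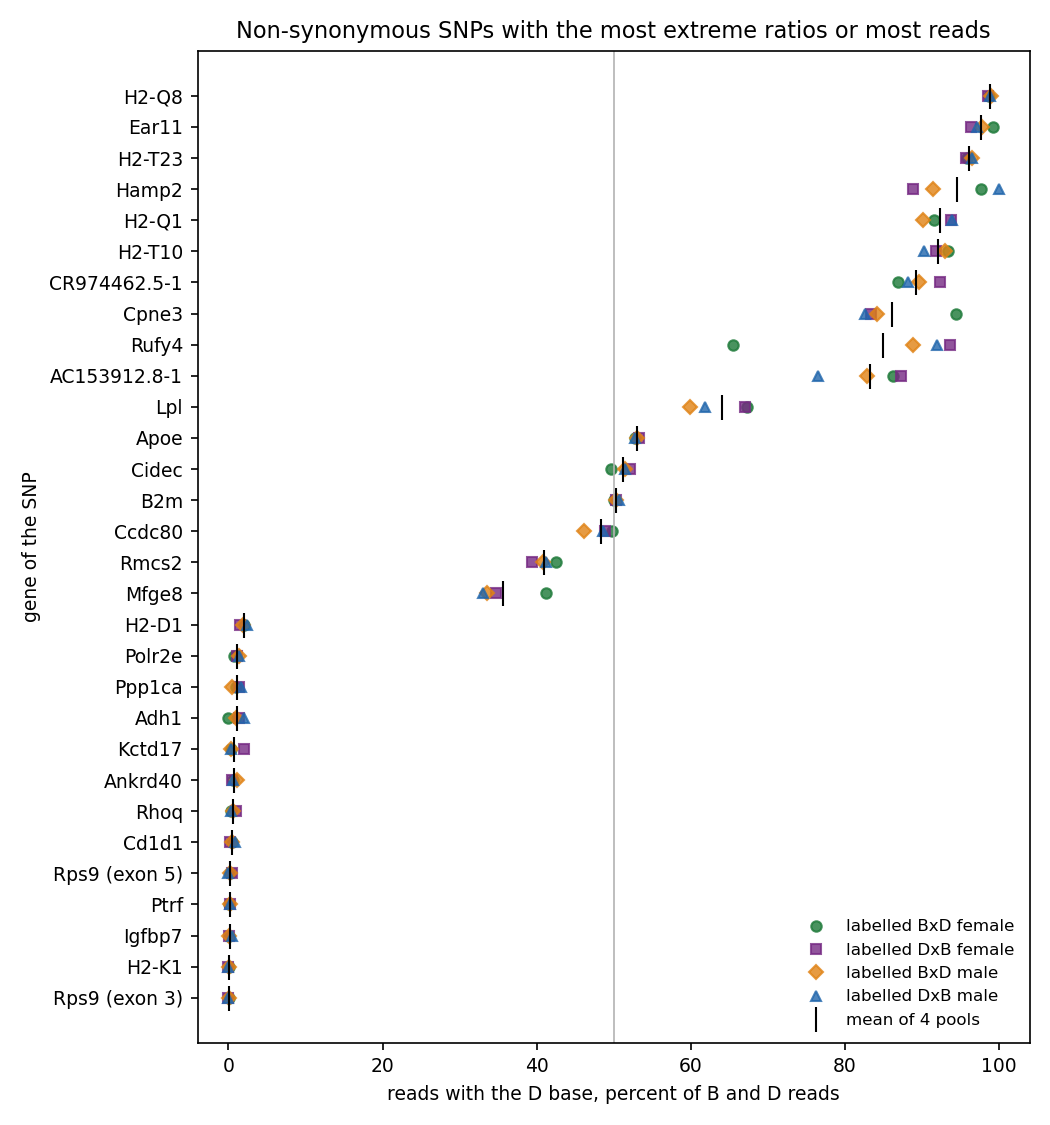
D share in percent (horizontal axis) at the non-synonymous SNPs with the most extreme called ratios or the most reads, 1 row per SNP, with symbols for the 4 pools by label and a black bar for their mean. The Lpl row is the SNP in exon 8. Apoe, Cidec and B2m sit near 50% in every pool, while Lpl (59.9 to 67.3%) lies above it and Mfge8 (33.0 to 41.2%) below it.

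Among called SNPs that leaned 1 way in every pool and had 10 or more reads of the weaker allele (201 D higher and 311 B higher), the highest D to B ratios were mostly in multi-copy families. H2-Q8, a class I gene, had 92 B and 7589 D reads (98.8 ± 0.143% D, SD, n = 4), and H2-T23, H2-T10 and H2-Q1 had mean D shares of 96.1%, 92.1% and 92.3%. At other exonic SNPs over 50 bp away, H2-T23 had 2848 B and 0 D reads, the opposite of the 234 B and 5809 D reads at its non-synonymous SNP in exon 5 of 7. Such SNPs of H2-Q8 (40 B and 6 D reads, adjusted p = 0.0235), H2-T10 (12 and 0, adjusted p = 0.0245) and H2-Q1 (37 and 11, adjusted p = 0.0602) also had more B than D reads. These are few reads, and the direction depended on the SNPs taken. With closer exonic SNPs outside the non-synonymous class included, H2-T10 had 23 B and 320 D reads (93.3% D, edgeR adjusted p = 1.16e-06). By that wider set H2-Q8 had 341 and 291 (46.0% D, adjusted p = 0.824), H2-T23 had 2934 and 277, and H2-Q1 was unchanged. CR974462.5-1, a clone-named model close to H2-K1 on chromosome 17, had 57 B and 456 D reads. By the wider set its exonic SNPs outside the non-synonymous class had 988 B and 49 D reads (4.73% D, edgeR adjusted p = 2.24e-07). Those over 50 bp away had only 11 B reads and 1 D read. Ear11, of the eosinophil-associated ribonuclease family, had D shares of 96.4 to 99.2% and 96.2% D in the rest of the gene. Hamp2, a copy of the hepcidin gene, had 33 B and 396 D reads, of which 31 and 334 came from the pool labelled BxD male (edgeR adjusted p = 5.93e-05, 0.181 by DESeq2).

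Outside such families, Rufy4, which encodes a protein with RUN and FYVE domains, had D shares of 65.5%, 93.7%, 88.9% and 91.9% in the pools labelled BxD female, DxB female, BxD male, DxB male. D exceeded B in every pool, with the lowest value in the pool with 29 reads. The log2 ratio was 3.23 ± 0.36 (edgeR adjusted p = 5.67e-10), and the rest of the gene had 87.2% D reads (adjusted p = 0.000134). Cpne3, a calcium-dependent phospholipid-binding protein, had 12 B and 84 D reads (log2 2.84 ± 0.42, adjusted p = 6.02e-07), while the other SNPs of the gene had 59.6% D (adjusted p = 0.103). The list of highest ratios was completed by the clone-named model AC153912.8-1 (27 B and 140 D reads).

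Under the same limit of 10 or more reads of the weaker allele, the 10 lowest D to B ratios were at SNPs with about 1% D reads or less. Ptrf, the caveolar coat protein also called cavin-1, had 1917, 2021, 2516 and 1734 B reads and 2, 4, 6 and 3 D reads in the pools labelled BxD female, DxB female, BxD male, DxB male. D reads were nearly absent in all 4 pools (0.178 ± 0.0561% D, log2 -8.95 ± 0.31, edgeR adjusted p = 7.80e-27), and other exonic SNPs of Ptrf had 0.0679% D reads. Igfbp7, a secreted binding protein of insulin-like growth factors, had 10 D reads of 7372 at one SNP in exon 1 and none at another in that exon with 11558 B reads. Ankrd40 had 14 D reads beside 1917 B reads and 0.0903% D in the rest of the gene. D reads were also scarce at Cd1d1, which presents lipid antigens (0.480% D), Rhoq, a small GTPase (0.564%), Kctd17 (0.753%), Ppp1ca, a catalytic subunit of protein phosphatase 1 (1.10%), and Polr2e, a subunit of RNA polymerases (1.13%), and none of these genes had a read at an exonic SNP outside the non-synonymous class. Rps9 in exon 5 had 0.244% D reads, while its exonic SNPs outside that class had 13792 B and 11235 D reads (44.9% D, adjusted p = 0.422). Adh1, an alcohol dehydrogenase, had 0, 4, 4 and 4 D reads against 308, 300, 426 and 190 B reads at its SNP in exon 5 of 9 and 41.7% D reads elsewhere in the gene (adjusted p = 0.258).

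For SNPs read from 1 allele only, a count of 3 reads was taken as the limit for the other allele over the 4 pools. Of B-only SNPs, Igfbp7 (11558 reads) had at least 3853-fold more B than D reads and H2-D1 (7128 reads) at least 2376-fold more. Ppp2r5a, a regulatory subunit of protein phosphatase 2A (2482 reads), had at least 827-fold more. Whether D DNA differs from B at these positions was not tested, and no B-only SNP that the study sequenced was verified. These are therefore limits on read counts and not established ratios of expression. The rest of Ppp2r5a had 1200 B reads and 1 D read. Of D-only SNPs, Ttc28 (616 reads) was at least 205-fold higher in D, Naglu, a lysosomal enzyme of heparan sulphate breakdown (397 reads), at least 132-fold and Mcpt2, a mast cell protease (231 reads), at least 77-fold. Elsewhere Ttc28 had 46.8% D reads, Naglu had 470 B and 0 D reads, and Mcpt2 had 1 B and 417 D reads. The SNP and the rest of the gene thus gave the same direction in Ppp2r5a and Mcpt2 and opposite ones in Naglu.

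The comparison with the rest of the gene was made for all called SNPs with at least 20 reads at other exonic SNPs more than 50 bp from any non-synonymous SNP, so that an unspliced 50 bp read could not cover both. Of all genes tested on such SNPs, 15.9% were called by edgeR's test on gene sums (4.59% D higher and 11.3% B higher). Among 267 D-higher non-synonymous SNPs, the rest of the gene was called D-higher for 113, leaned to D without a call for 112, leaned to B without a call for 29 and was called B-higher for 13. Among 767 B-higher SNPs, these numbers were 381 called B-higher, 211 leaning to B, 160 leaning to D and 15 called D-higher. For the 385 B-higher SNPs with under 1% D reads, the rest of the gene was called B-higher for 225, and had a D share of 30 to 70% for 182 (47.3%).

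**Figure D3:**
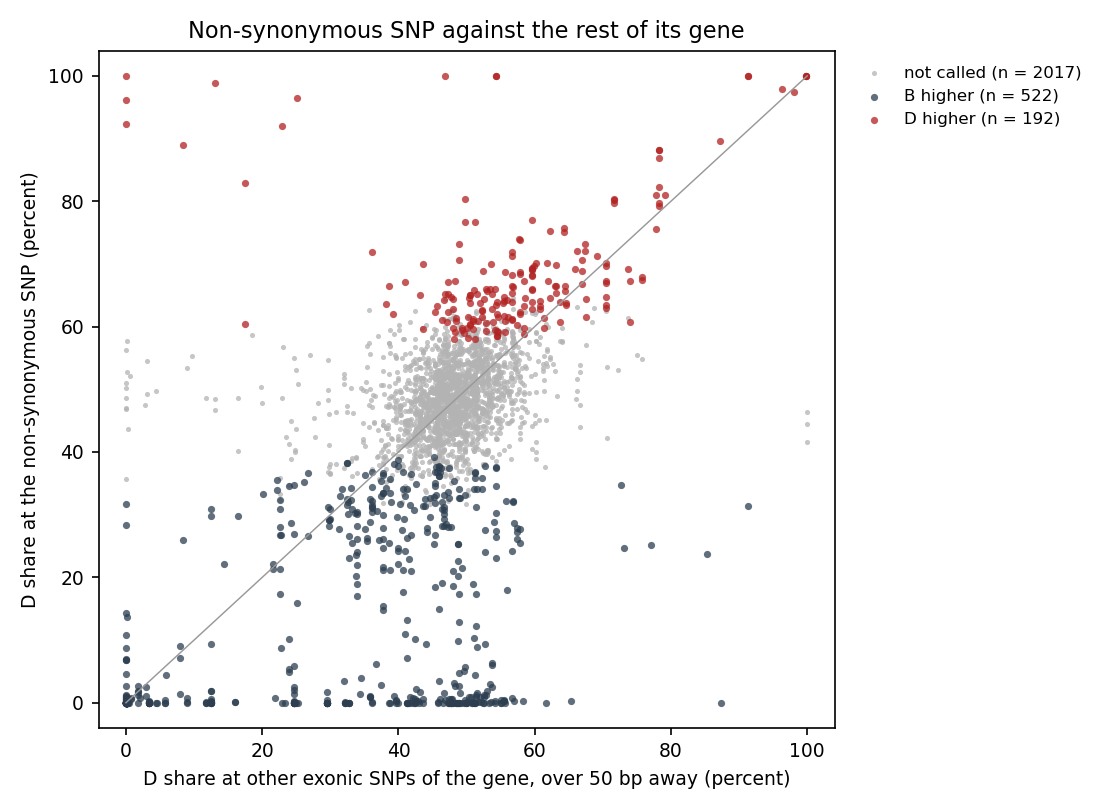
D share at each non-synonymous SNP with at least 100 reads (vertical axis, percent) against the D share at other exonic SNPs of the same gene over 50 bp away (horizontal axis, percent), over the 4 pools, for 2731 SNPs. Called SNPs are red (D higher, n = 192) or dark blue (B higher, n = 522), the line marks equal shares, and a row of dark blue points runs along 0% on the vertical axis, mostly at horizontal values from 0 to 60%.

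Genes in which the non-synonymous SNP and the rest of the gene were both called in the same direction, with at least 1% of reads from each allele and 1 direction in all 4 pools, numbered 43 with D higher (88 SNPs) and 86 with B higher (154 SNPs). They come from 257 D-higher and 452 B-higher called SNPs with at least 1% of reads from each allele, and other SNP classes were not counted this way. Those named here were picked from the genes with the most reads, after their values were seen. Wisp2, a secreted protein of the CCN family, had 379 B and 1012 D reads, 225 and 618, 306 and 672, and 338 and 792 in the pools labelled BxD female, DxB female, BxD male, DxB male. D was higher in every pool (71.2 ± 2.18% D, log2 1.40 ± 0.21, edgeR adjusted p = 5.47e-07), with 69.2% D in the rest of the gene (adjusted p = 0.00145). Steap3, a metalloreductase of iron uptake, had 65.7 ± 4.16% D at the SNP and 62.3% elsewhere, Il3ra, the alpha chain of the interleukin-3 receptor, had 67.8 ± 4.88% and 58.4%, and Mxra8, a cell adhesion protein, had 59.7 ± 1.41% and 61.4%.

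Of genes with B higher at both, Mrap, the accessory protein that carries the ACTH receptor to the surface of adrenal and fat cells, had 349 B and 154 D reads, 431 and 151, 495 and 182, and 392 and 153 in those pools. The D share was between 25.9 and 30.6% in all 4 (log2 -1.28 ± 0.20, edgeR adjusted p = 1.74e-06), and 35.1% in the rest of Mrap (adjusted p = 0.0265). Ctdsp1, a small phosphatase, had 2346 B and 61 D reads at the SNP (2.55 ± 0.697% D) and 2.92% D elsewhere. Entpd2, an enzyme that breaks down extracellular nucleotides, had 35.3 ± 1.70% at the SNP and 37.5% elsewhere, and Synpo2, an actin-binding protein, had 36.8 ± 2.07% and 36.1%.

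In contrast, 124 called SNPs in 94 genes had under 1% D reads while the rest of the gene had a D share of 40 to 60% over at least 100 reads. In all, 612 called SNPs had under 1% D reads, and 385 of these had at least 20 reads elsewhere in the gene. Such counts were not made for synonymous or other exonic SNPs, so they are not shown to be particular to non-synonymous SNPs. Cebpa, a transcription factor of fat cell differentiation with a single exon, had 455, 560, 672 and 612 B reads and 1, 1, 0 and 1 D reads in the pools labelled BxD female, DxB female, BxD male, DxB male. The other exonic SNP of Cebpa had 14407 B and 14454 D reads (50.1% D, edgeR adjusted p = 0.736). The mitochondrial channel Vdac1 (2266 B reads and 1 D read), the outer mitochondrial membrane protein Cyb5b (2504 and 1), the tropomyosin Tpm1 (1681 and 0) and the chaperone Dnaja2 (1221 and 0) had 51.7%, 45.8%, 53.3% and 49.9% D reads elsewhere. These names were chosen after the values were seen, among the SNPs with the most reads. The reverse, a D share of 40 to 60% at the SNP and under 1% elsewhere, was found at 7 SNPs of 6 genes, among them Ndufs6, a subunit of respiratory complex I (52.8 ± 2.59% D against 1010 B reads and 1 D read elsewhere) and Ptgis, the prostacyclin synthase (44.9 ± 4.24% against 1348 B and 4 D reads).

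The 4 genes with the most called non-synonymous SNPs were B-higher at every called SNP. Ccdc55 was called at 20 of 20 SNPs, with 6540 B and 12 D reads in all, D shares of 0 to 2.38% and 14 SNPs without a D read, and its other exonic SNPs had 2753 B and 2 D reads. Sipa1l2 was called at 14 of 14, with 2563 B and 32 D reads, and all 32 D reads lay at 1 SNP, with 13.6% D (5.66 to 25.9% over the pools), while the other 13 had no D read. H2-K1 was called at 18 of 19 SNPs with D shares from 0 to 54.9%, and H2-D1 at 13 of 13 with 0 to 30.9%. D reads were thus nearly absent along Ccdc55 and at all but 1 SNP of Sipa1l2, while H2-K1 and H2-D1 ranged more widely from SNP to SNP.

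**Figure D4:**
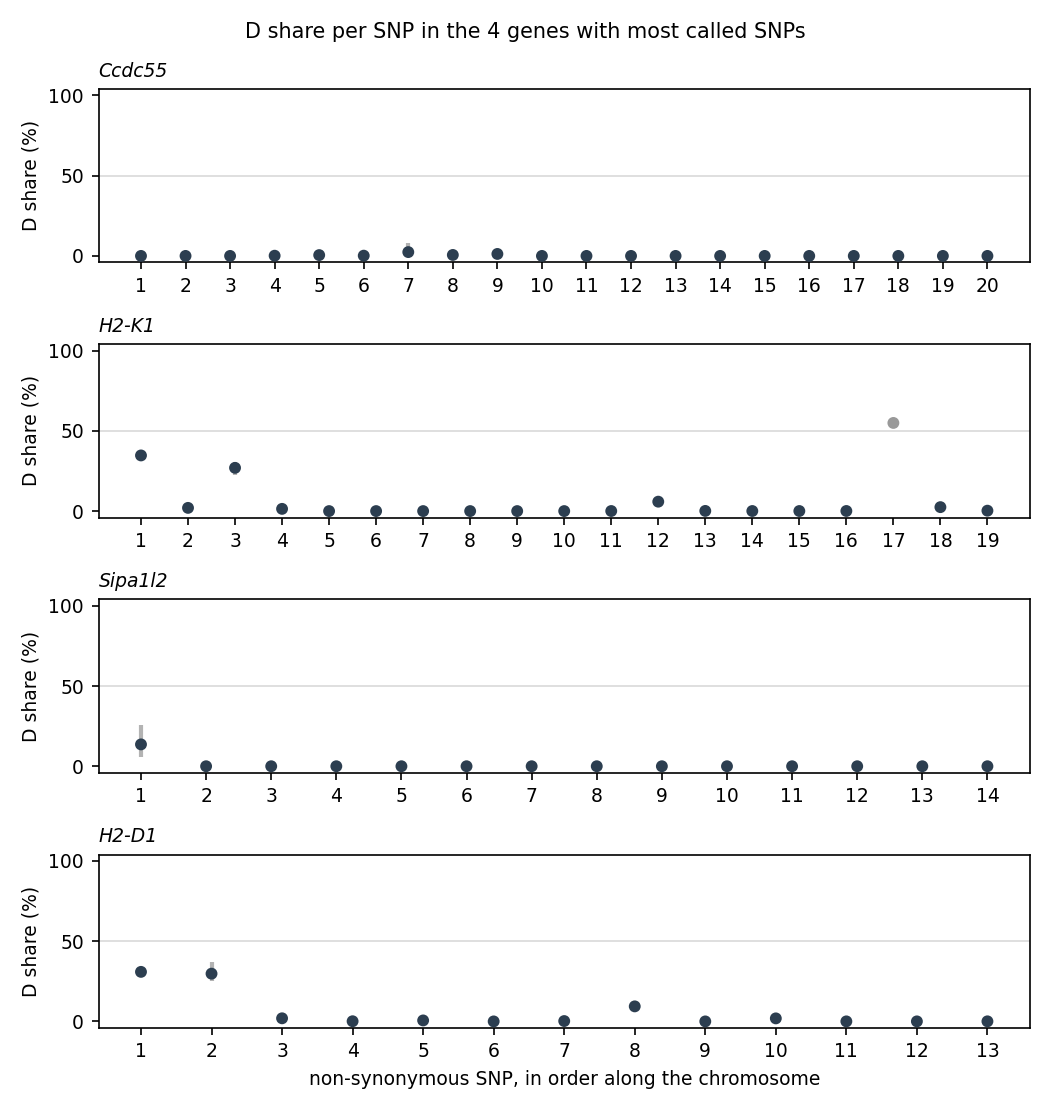
D share in percent over the 4 pools (vertical axis) at each non-synonymous SNP, in order along the chromosome (horizontal axis), for the 4 genes with the most called SNPs. Dark points were called B-higher, grey points were not called and vertical lines give the range over pools: Ccdc55 stays within 0 to 2.38%, while H2-K1 runs from 0 to 54.9%.

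By function, the 14 genes of lipid storage and fatty acid metabolism with a non-synonymous SNP held 18 such SNPs, of which 5 were called (27.8%, against 13.6% of all exonic SNPs), 1 D-higher (Lpl) and 4 B-higher, with a median log2 ratio of 0.06 against -0.05 over all exonic SNPs. The 5 calls lay in 3 genes. With the pool as a block 10 of the 18 were called (55.6%, against 21.1% of all exonic SNPs). In this list and the next ones, in order, 17 of 18, 53 of 57, 114 of 116, 71 of 78, 20 of 23 and 17 of 17 SNPs had at least 10 reads. Over all non-synonymous SNPs this was 5894 of 7861, and 17.3% were called. The listed SNPs were thus read more deeply. Lpin1, the phosphatidate phosphatase of triglyceride synthesis, had D shares of 27.4%, 27.5%, 34.6% and 30.4% in the pools labelled BxD female, DxB female, BxD male, DxB male at its SNP in exon 5 of 21. D was the lower allele in every pool (log2 -1.10 ± 0.20, edgeR adjusted p = 2.78e-05), and the rest of Lpin1 had 32.5% D reads (adjusted p = 0.00659). Acss2, which makes acetyl-CoA from acetate, had 164 B and 0 D reads, which allows a D share of up to 1.83%. Whether D DNA differs from B at this position was not tested.

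Of 57 SNPs in 15 extracellular matrix and adhesion genes, 3 were called (5.26%, against 13.6% of all exonic SNPs), 1 D-higher and 2 B-higher, with a median log2 ratio of -0.03, and 13 were called with the pool as a block (22.8%, against 21.1%). Col5a2, a collagen chain, had 61.3 ± 5.91% D (log2 0.82 ± 0.23, edgeR adjusted p = 0.0103) and lost its call without the pool labelled DxB male (adjusted p = 0.115). Lama5, a laminin chain, had 30.6 ± 2.52% D (log2 -1.08 ± 0.26, adjusted p = 0.00186). Tnxb, a tenascin, had 38.1 ± 3.29% D (log2 -0.61 ± 0.21, adjusted p = 0.0462) and was above the threshold without the pool labelled DxB female, BxD male or DxB male (adjusted p = 0.104, 0.160 and 0.0707). Elsewhere these genes were not called, with 55.5% D in Col5a2, 42.2% in Lama5 and 46.0% in Tnxb (edgeR adjusted p = 0.0630, 0.225 and 0.703). Hspg2, the basement membrane protein perlecan, had 41.9 ± 1.16% D (adjusted p = 0.358 by edgeR, 5.21e-09 with the block).

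Antigen presentation and interferon response genes had the most calls of the 6 lists, 62 of 116 SNPs in 26 genes (53.4%, against 13.6% of all exonic SNPs), with 4 D-higher, 58 B-higher and a median log2 ratio of -0.84. With the block 74 were called (63.8%, against 21.1%). Of the 58, 32 had under 1% D reads, and 18 of the calls were in H2-K1 and 13 in H2-D1. Rmcs2, a gene of the H2 region with B-higher calls given above, was not in this list. H2-Eb1, a class II beta chain, was D-higher with 740 B and 1251 D reads, 566 and 997, 784 and 1361, and 596 and 926 in the pools labelled BxD female, DxB female, BxD male, DxB male. All 4 pools had more D reads (62.7 ± 1.32% D, log2 0.85 ± 0.19, edgeR adjusted p = 0.000818), with 53.7% D in the rest of the gene (adjusted p = 0.121).

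Of 78 SNPs in 23 leukocyte surface, cytokine and complement genes, 19 were called (24.4%, against 13.6% of all exonic SNPs), 2 D-higher and 17 B-higher (13 of these with under 1% D reads), with a median of -0.46, and 30 were called with the block (38.5%, against 21.1%). The D-higher SNPs were in Stab1, a scavenger receptor of macrophages (62.8 ± 2.63% D, log2 0.85 ± 0.20, edgeR adjusted p = 0.00184), and Fcgr3, a receptor for antibodies (63.8 ± 6.79% D, log2 0.95 ± 0.22, adjusted p = 0.000967). The rest of each gene was near balance, with 47.9% and 47.7% D reads. C1qc, a chain of complement C1q, had 39.0 ± 2.31% D (adjusted p = 0.0455) and was not called without any 1 of the 4 pools (adjusted p = 0.0593 to 0.243). The rest of C1qc had 45.3% D and was not called (edgeR adjusted p = 0.614). The chemokine Ccl9 had 937 B and 4 D reads against 55.0% D elsewhere in the gene.

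Of 23 SNPs in 12 genes of detoxification and redox enzymes, 7 were called (30.4%, against 13.6% of all exonic SNPs), 1 D-higher and 6 B-higher (4 of these with under 1% D reads), with a median of -0.58, and 12 were called with the block (52.2%, against 21.1%). Akr7a5, an aldo-keto reductase, was D-higher with D shares of 70.8%, 61.2%, 75% and 81.0% in the pools labelled BxD female, DxB female, BxD male, DxB male (log2 1.5 ± 0.22, edgeR adjusted p = 3.75e-07) and with 67.3% D in the rest of the gene (adjusted p = 0.000449). Prdx6, a peroxiredoxin, had 36.9 ± 1.64% D (log2 -0.68 ± 0.19, adjusted p = 0.0102). The rest of Prdx6 had 46.0% D and was not called (edgeR adjusted p = 0.671). Txnrd1, a thioredoxin reductase, had 309 B reads and 1 D read against 42.5% D elsewhere. Ahr, the dioxin receptor, known for high- and low-affinity forms in these strains, was chosen after its values were seen. It had 6 non-synonymous SNPs of 41 to 102 reads with D shares of 34.1 to 48.4% and no call, and 37.99% D over its other exonic SNPs (adjusted p = 0.113).

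Of 17 SNPs in 11 insulin, growth factor and nuclear receptor signalling genes, 3 were called (17.6%, against 13.6% of all exonic SNPs), all B-higher, with a median of -0.05, and 8 were called with the block (47.1%, against 21.1%). These were in Cebpa, described above, Cap1 and Igf2r. Cap1, a regulator of actin, had 9.78 ± 2.15% D at the SNP (log2 -3.10 ± 0.22, edgeR adjusted p = 4.03e-16) and 48.7% in the rest of the gene (adjusted p = 0.862). Igf2r, a receptor that clears insulin-like growth factor 2, had 28, 37, 30 and 31 B reads and no D read in any pool, and 370 B and 0 D reads elsewhere. Whether D DNA differs from B at these Igf2r positions was not tested, so B-higher expression is not established there.

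Parent of origin was tested as maternal against paternal reads in the pools labelled BxD female and DxB male, whose labels and file names give the same identity. No non-synonymous SNP of 7421 was called by edgeR's quasi-likelihood test (15 at an unadjusted p under 0.05), when 0.0172% of all exonic SNPs were called, and DESeq2 called 2 (0.0365% of all). These were H13, a signal peptide peptidase gene, and Ndn, the necdin gene known to be expressed from the paternal copy, and both were singled out after their values were seen. At H13 the reads of B and D were 410 and 101, 383 and 115, 123 and 322, and 87 and 262 in the pools labelled BxD female, DxB female, BxD male, DxB male. At Ndn they were 2 and 66, 1 and 85, 94 and 14, and 89 and 5. The pools labelled female thus had mostly B reads at H13 and mostly D reads at Ndn, and the pools labelled male had the reverse.

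The maternal to paternal log2 ratio in the 2 pools was 1.80 ± 0.45 at H13 (edgeR adjusted p = 0.99998, DESeq2 adjusted p = 0.000168) and -4.40 ± 0.71 at Ndn (edgeR adjusted p = 0.264, DESeq2 adjusted p = 0.00345). With 4 pools by label no non-synonymous SNP and 0.0% of all exonic SNPs were called by edgeR (72 at an unadjusted p under 0.05). With the identities of the disputed pools exchanged, as in their file names, edgeR called H13 (1.67 ± 0.19, adjusted p = 0.0185) among 0.0306% of all exonic SNPs, and Ndn was at -3.87 ± 0.62 (adjusted p = 0.194).

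The test of strain by sex, with cross and sex as labelled, called the same pair of non-synonymous SNPs of 7861, when 0.053% of all exonic SNPs were called. The log2 D to B ratio was higher in the pools labelled male by 3.35 ± 0.40 at H13 (edgeR adjusted p = 2.90e-13) and differed by -8.82 ± 0.65 at Ndn (adjusted p = 3.86e-38). With the identities exchanged none was called by edgeR (170 at an unadjusted p under 0.05), when 0.00204% of all exonic SNPs were called. H13 was at 0.07 ± 0.37 and Ndn at 0.17 ± 0.46. Under the exchange, the pools labelled female are the BxD and those labelled male the DxB pools, so labelled sex and exchanged cross cannot be told apart. At the Lpl SNP in exon 8 the difference by label was -0.40 ± 0.35 (edgeR adjusted p = 0.9999). With the pool as a block it was -0.40 ± 0.08 (edgeR adjusted p = 0.0241). With the identities exchanged and no block, the Lpl difference was 0.10 ± 0.29 and was not called.

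**Figure D5:**
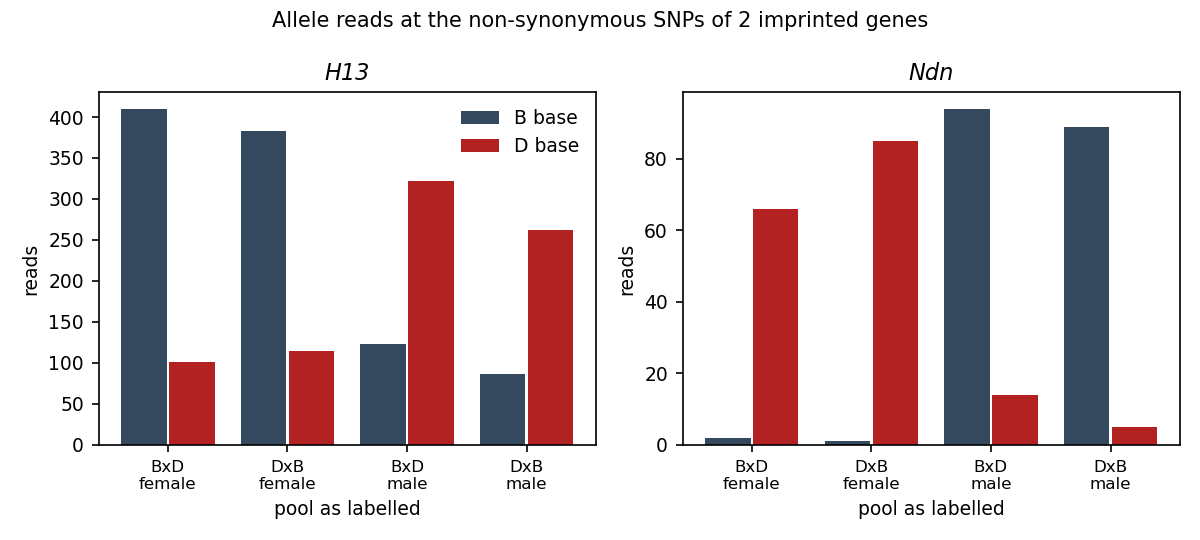
Reads (vertical axis, linear) with the B base (dark blue) and the D base (red) at the non-synonymous SNPs of H13 and Ndn in the 4 pools as labelled (horizontal axis). B reads exceed D reads at H13 in the pools labelled female (410 and 383 B reads) and D reads exceed B reads in those labelled male (322 and 262 D reads), with the reverse at Ndn.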

How the data were processed

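Gonadal fat RNA of 4 F1 pools had been sequenced as paired 50 bp reads. The authors treated mates as single reads, aligned them to mm9 with up to 3 mismatches and deposited raw counts of reads with the B and the D base at known SNPs, without normalization. The submitters' processing notes name CASAVA and TopHat 1. Whether D variants were masked in the reference is uncertain, and mates are not independent, so limits cover counting error only. Duplicate samples were looked for: at most 0.423% of SNPs had equal counts in a pair of pools.

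Groups follow the labels. SNPs with the authors' annotation of non-synonymous coding and exon, on chromosomes 1 to 19, were taken, and 137 rows listing the same base for both strains were left out. Allele counts were tested in R 4.3.3 by edgeR 4.0.16 (TMM, quasi-likelihood, all exonic SNPs with a read, Benjamini-Hochberg threshold 0.05) and DESeq2 1.42.0. Fold limits used 3 reads over the 4 pools. Single values per pool were compared with an exact sign-flip permutation test. B and D reads of a pool come from the same animals, so the pool pairs them, and their deviations from the allele means correlated (r = 0.328 to 0.487 over 18568 SNPs). The fit without the block was kept, as in the study. The test was tested on simulated data.

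Members and gene lists were chosen with earlier results of these data known. The 10 genes with the highest and the 10 with the lowest ratio came from called SNPs that leaned 1 way in every pool. For these 2 sets the weaker allele had 10 or more reads. Without these limits, the 10 genes with the most deeply read SNPs and the 5 genes with the most calls were named. Up to 4 SNPs per list were named by reads, called SNPs first. The 3 called SNPs per direction with the most reads and none of the other allele were also named. Any others are said to be chosen later. Of these genes, 1 of those with the most calls and 1 list example are not reported here. Alternatives were other normalizations, DESeq2, at least 10 reads, the block, each pool left out, close SNPs, one-allele SNPs and intronic SNPs added. Sequence, codons and exons came from NCBIM37 and GENCODE vM1 (pysam 0.24.0). Python 3.11.15, pandas 2.3.3, numpy 2.4.6 and matplotlib 3.10.9 were used. Protein sequences were not used here.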

Additional observations from a re-analysis of the deposited data

Results flagged for a closer look

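The share of D reads in 1 pool stood apart from the other 3 in 4 of 49 groups of 4 pools. Chance alone would set apart about 1 group in 20 if groups were independent and their values continuous. The groups include SNPs chosen for their ratios or reads and D counts near 0, so no conclusion is drawn from that rate. At Rufy4 the pool labelled BxD female had 65.5% D reads and the other 3 had 88.9 to 93.7%. At Kctd17 the pool labelled DxB female had 1.995% and the others 0.298 to 0.368%, and at Txnrd1 the same pool had 0.862%, a single read, and the others 0. Over all synonymous SNPs the pool labelled BxD male had 45.6% D reads and the others 47.6 to 47.8%.

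The D to B ratio differed between the labelled sexes by 3.35 on the log2 scale at H13 and by -8.82 at Ndn, by the interaction term of edgeR's fit. Both differences were near 0 when the disputed identities were exchanged, as given above.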

How the results depend on the processing

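D against B at the non-synonymous SNPs gave 1116 calls with DESeq2, 1354 with its size factors, 1349 with 1 library size per pool, 1288 with at least 10 reads, 1063 with the first of close SNPs and 1185 with intronic SNPs added, against 1357. Restricted to SNPs with no listed SNP within 50 bp there were 633 (132 D higher and 501 B higher), and without SNPs of under 1% of reads from either allele 579 (183 D higher and 396 B higher), of fewer SNPs tested in both cases. With the pool as a replicate block, which pairs the alleles of a pool, D-higher calls rose to 543. Leaving out each pool in turn gave 1146 to 1213 calls, 198 to 238 D higher and 948 to 975 B higher.

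The genes of these SNPs were called at their other exonic SNPs for 465 of 2868 (153 D higher and 312 B higher). This became 960 (411 and 549) with the block and, for D higher, 95 with 1 library size per pool. With a pool left out it was 326 to 393, with 79 (without the pool labelled DxB male) to 114 D higher (88 without that labelled DxB female, 99 without that labelled BxD male) and 247 to 279 B higher. The difference in D share between classes was -7.50 to -6.93 percentage points with a pool left out.

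Calls for parent of origin were 0, 1 with exchanged identities and 2 with DESeq2, and those for strain by sex were 2, and 0 with exchanged identities. No pool could be left out of the 2-pool parental test, and this was not run for strain by sex. Of 63 named SNPs 47 were called, and 4 of these lost the call under some setting (Hamp2 by DESeq2, and Tnxb, Col5a2 and C1qc), with none reversed. The block changed the call of no named SNP other than those given with it and 1 not reported here. The causes were not tested. The spread of 4 pools limits these results, and 5894 of 7861 SNPs had at least 10 reads.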
